A study of Mus musculus with 20 samples.

Results

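The regions described here are 3045 of the 42403 mouse genomic regions at which GATA6 was bound during its induction in embryonic stem (ES) cells or in XEN cells. They were selected on 4 measured classes that the authors deposited for each region. GATA6 binding was Transient over the time course. At least 1 of the pluripotency transcription factors (PTF) OCT4, SOX2 and ESRRB was bound at d0, before induction. SOX17 had no peak there, and chromatin accessibility at d0 was in the moderate (2443 regions) or the closed class (602 regions). The 916 regions with the same binding classes whose d0 accessibility put them in the accessible class are used for comparison, as are 865 regions that differed in having a SOX17 peak and 8521 less accessible Transient regions without PTF or SOX17. GATA6, PTF and SOX17 binding and accessibility at d0 are thus properties of the choice, not results. The limits of the accessibility classes are not given in the sources used here, and in the deposited d0 values the classes overlap. Closed members ranged from 0.0136 to 0.392 RPM (reads scaled to the sequenced reads of the library) with a median of 0.0742 RPM, and moderate members from 0.0268 to 1.42 RPM with a median of 0.180 RPM. The accessible regions just outside the choice ranged from 0.107 to 1.90 RPM.

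Accessibility was measured by ATAC-seq, in which the transposase Tn5 cuts exposed DNA. KH2 ES cells of mixed C57BL/6 x 129/Sv background, carrying a doxycycline-inducible Gata6 cassette, derived from picked clones and grown with LIF on feeder cells that were removed before the assay, were sampled at d0 without treatment (3 samples), at 8 h (3), 16 h (3), day 1 (3), day 2 (3) and day 4 (2) of doxycycline. All KH2 groups, d0 included, carry the cassette, and doxycycline was given to every group but d0. Untreated wild-type X10 XEN cells of CD1 background (3 samples), an established line of extraembryonic endoderm grown without LIF, were the reference for the endoderm state, so that line, strain and culture differ between them and KH2 cells. Times follow the titles, and the doxycycline exposure written in the treatment field differs for 4 groups (16, 24, 48 and 72 h for those titled 8 h, 16 h, day 1 and day 2). The table gives 1 average per group, and the reads of 16 single libraries could be recovered from these averages at 24727 regions, 1732 of them members, for all groups but d0. Library sizes lay between 181 and 288 M reads, apart from 1 XEN library of 43.3 M. Only 2 XEN libraries were recovered, where the labels list 3 samples, and their sizes and RPM values assume that the average was taken over these 2. The 3 libraries of 8 h differed in the reads that fell in these regions (558305, 776095 and 1057975). By the study's methods the libraries of a group came from separate cell cultures, so that p-values measure the spread between cultures.

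GATA6 is a zinc-finger factor that binds the core sequence GATA and drives ES cells towards primitive endoderm, the lineage that forms the yolk sac and that XEN cells represent. OCT4 and SOX2 bind side by side at a composite motif and, with the nuclear receptor ESRRB, keep ES cells pluripotent through distal enhancers. GATA6 and OCT4 are both known as pioneer factors, able to reach sites wrapped in nucleosomes. SOX17 is an endoderm relative of SOX2 that can pair with OCT4 on a variant of the composite motif.

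Many members shared their DNA sequence with one another. The 201 bases around the GATA6 summit of every region were aligned to those of all others, and windows that matched over at least 100 bases at 75% identity or more, without overlapping on the genome, were linked. In this way 631 members (20.7%) fell into 48 families of 2 or more, of which the 6 largest held 447 members. One window of each of these 6, that with the most matches within its family, is shown to let the shared sequence be seen. Sequences are the plus strand of mm10, and capitals mark the authors' best matches to the GATA6, OCT4:SOX2 and ESRRB motifs that lay inside the window.
Family 1, chr15:36760229-36760429: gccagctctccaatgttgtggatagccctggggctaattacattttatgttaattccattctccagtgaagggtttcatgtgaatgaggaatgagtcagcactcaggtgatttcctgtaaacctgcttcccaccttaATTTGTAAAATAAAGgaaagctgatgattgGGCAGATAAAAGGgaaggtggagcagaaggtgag
Family 2, chr12:103564822-103565022: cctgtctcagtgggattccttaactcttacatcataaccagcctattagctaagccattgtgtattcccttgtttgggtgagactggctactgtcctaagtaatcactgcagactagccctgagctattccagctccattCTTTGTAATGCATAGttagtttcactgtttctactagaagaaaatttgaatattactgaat
Family 3, chr4:7942647-7942847: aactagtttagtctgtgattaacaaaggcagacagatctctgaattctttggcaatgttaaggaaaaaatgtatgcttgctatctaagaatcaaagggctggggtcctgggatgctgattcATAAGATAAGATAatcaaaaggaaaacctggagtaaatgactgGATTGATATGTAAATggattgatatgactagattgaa
Family 4, chr7:85104585-85104785: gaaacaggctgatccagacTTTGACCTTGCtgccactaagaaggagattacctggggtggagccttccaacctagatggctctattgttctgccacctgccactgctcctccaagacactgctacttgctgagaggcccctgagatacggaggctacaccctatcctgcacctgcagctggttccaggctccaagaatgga
Family 5, chr12:84029112-84029312: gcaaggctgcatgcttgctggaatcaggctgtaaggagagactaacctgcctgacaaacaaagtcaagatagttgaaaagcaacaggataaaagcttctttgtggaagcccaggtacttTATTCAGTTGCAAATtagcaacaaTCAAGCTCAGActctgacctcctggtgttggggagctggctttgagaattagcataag
Family 6, chr4:118985378-118985578: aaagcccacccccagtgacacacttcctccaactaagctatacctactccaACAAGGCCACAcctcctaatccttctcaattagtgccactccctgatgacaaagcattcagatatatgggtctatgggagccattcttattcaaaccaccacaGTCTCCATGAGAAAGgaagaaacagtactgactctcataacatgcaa

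In the family 1 window the first run of capitals is an OCT4:SOX2 match read on the minus strand, and the second is a GATA6 match with the core AGATAA. The family 2 window holds an OCT4:SOX2 match and no best match to GATA6. In the family 3 window a GATA6 match precedes an OCT4:SOX2 match, and the family 4 window holds an ESRRB match read on the minus strand. The windows of families 5 and 6 hold an OCT4:SOX2 match beside an ESRRB match of low score. In the gene annotation the family 2 window is centred in an intron of Ppp4r4, and the centres of the other windows are intergenic.

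The motif letters recurred within families. Of the 176 members of family 1, 171 had a GATA6 match, whose letters were GGCAGATAAAAGG in 62 of them, and 62 carried CTTTATTTTACAAAT as their OCT4:SOX2 match, which had a low median score (7.90). In family 4 the ESRRB match read GCAAGGTCAAA in 13 of 28 members that had one. The median ESRRB score was 13.8 in family 4 and 13.8 in family 3, against 8.25 over all members with a match. Families 5 and 6 instead had the highest median OCT4:SOX2 scores of the 6 (13.5 and 13.8). Every one of their 34 and 31 members had such a match, as did every member of families 1 and 3. In families 2 and 4 it was listed for 82 of 83 and 48 of 56 members. The regions of the whole table that aligned to a family differed in their binding class. Of these, 304 of 323 for family 1 and 56 of 59 for family 5 were Transient. For families 3 and 6 the numbers were 116 of 185 and 73 of 119. These counts include each family's own members (176, 34, 67 and 31 in families 1, 5, 3 and 6), which are Transient by choice. Over the whole table, 758 members (24.9%) aligned to at least 1 other region, against 5620 of all regions (13.3%), 177 accessible PTF-bound regions (19.3%), 1170 regions without PTF (13.7%) and 257 with SOX17 (29.7%). Reads of such regions passed the authors' mapping quality filter, and the part of mapping in their levels was not tested.

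Sequence motifs had not entered the choice, although PTF binding had. An OCT4:SOX2 match was listed for 2903 members (95.3%) against 71.5% of all regions and 67.2% of those without PTF, with a median score of 10.9 against 8.17 over all regions. Matches were sought over the whole region, and median widths were 667, 524 and 445 bp in these 3 sets. The part of width in the matches, scores and distances was not tested. The octamer word ATGCAAAT, searched on both strands of the 201-base window, was found in 278 members (9.13%) and in 1271 of all 42403 regions. For GATA6 the relation ran the other way. The words AGATAA or TGATAA stood in 58.3% of the members, 71.4% of all regions and 81.0% of those without PTF, and the median GATA6 score was 9.65 against 10.2 over all regions. The ESRRB word AAGGTCA was present in 9.26% of the members and 7.06% of all regions, and the SOX words ACAATG or ACAATA in 29.9% and 34.4%. None of these words contains another, but they can overlap on the DNA.

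Position relative to the GATA6 summit differed in the same sense. The best OCT4:SOX2 match lay within 50 bp of the GATA6 summit in 41.5% of the members, against 19.1% of all regions and 21.7% of those without PTF. The best GATA6 match lay this close in 31.3% of the members, 44.8% of all regions and 55.3% of those without PTF. Among the 2570 members with both, the OCT4:SOX2 match was the nearer in 1416 (55.1%) and the GATA6 match in 1148 (44.7%), whereas over all regions the OCT4:SOX2 match was nearer in 35.7%. The SOX17-bound comparison set, with 50.2%, lay between them. In the accessible PTF-bound regions the OCT4:SOX2 match was nearer in 61.7%, above the members, and lay within 50 bp of the summit in 44.2%.

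**Figure D1:**
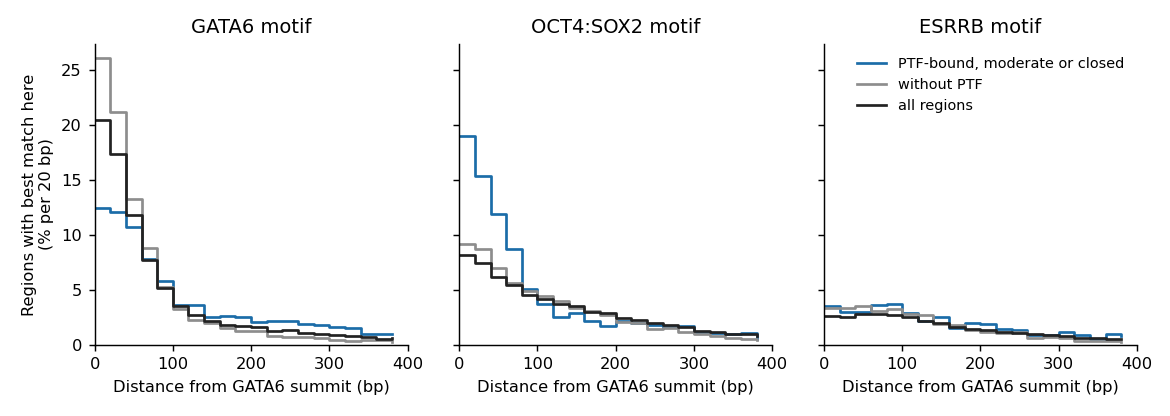
Distance in bp between the GATA6 summit and the authors' best match to the GATA6, OCT4:SOX2 and ESRRB motifs, as the percentage of regions per 20 bp, for the 3045 members (blue), the 8521 regions without PTF (grey) and all 42403 regions (black). Near the summit the blue line is the lowest for GATA6 and the highest for OCT4:SOX2.

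The 2 accessibility classes were not alike in sequence. GATA words were found in 79.2% of closed and 53.1% of moderate members, and in 25.4% of the PTF-bound regions that were accessible at d0. The median GATA6 score followed this order (10.3, 9.42 and 8.38), as did the share of regions with a GATA6 match within 50 bp of the summit (42.4%, 28.6% and 18.8%). The OCT4:SOX2 score did not, with medians of 11.1 in closed, 10.8 in moderate and 11.1 in accessible regions. Closed members also lay farther from genes, at a median of 61.4 kb from the nearest start site of a protein-coding gene, against 35.8 kb for moderate members, 24.6 kb for accessible regions and 25.7 kb for all regions. Because d0 accessibility defines these classes, this is a description of the deposited classes.

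Members were distal. Of the 3045, 59.2% were intergenic and 38.9% intronic, and 87 (2.86%) lay within 1 kb of a start site, against 6.56% of all regions. Their median width was 667 bp (524 bp over all regions), and RPM values are not divided by width. By the authors' classes of ES cell histone marks, 1112 members (36.5%) were primed enhancers, a class that held 16.9% of all regions, and 702 (23.1%) active enhancers (11.2% of all regions). Poised enhancers made up 442 (14.5%), constitutive heterochromatin 336 (11.0%), the class labelled naive 235 (7.72%), facultative heterochromatin 128 (4.20%, against 22.3% of all regions) and promoters 90 (2.96%). In the authors' classes of GATA6 binding at day 2 of Oct4 knockdown, 2804 members were unchanged, 237 decreased (7.78%, against 6.25% of all regions) and 4 increased (0.131%, against 8.57%).

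Accessibility of the members stayed near its d0 level through day 1 and was lower by day 4. In the averaged columns their median went from 0.154 RPM at d0 and 0.140 at 8 h to 0.146 at 16 h, 0.167 at day 1, 0.117 at day 2 and 0.0694 at day 4. In XEN cells it was 0.0866 RPM. Over all regions the median instead rose from 0.0800 RPM at 8 h to 0.161 at day 2 and stood at 0.129 at day 4. Of the 5 columns from 8 h to day 4, day 1 held the highest value at 1496 members (49.1%) and day 4 the lowest at 2448 (80.4%), and over all regions these shares were 14.6% and 24.3%. By the decoding, averaged values include 1 added read per library, which was taken off in the single libraries below. Such a read is worth 0.0231 RPM in 1 XEN library, against 0.00502 and 0.00534 RPM in the day 4 libraries. Averaged XEN values are thus raised more than those of day 4. In bulk cells, fewer cells with an open region and less signal per cell cannot be told apart.

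The single libraries showed the same course. Medians over the 1732 members with recovered reads were 0.127, 0.176 and 0.0973 RPM at 8 h, 0.195, 0.132 and 0.0940 at 16 h and 0.142, 0.222 and 0.132 at day 1, 0.109, 0.110 and 0.116 at day 2, 0.0653 and 0.0641 at day 4 and 0.0728 and 0.0693 in XEN cells. The libraries up to day 1 spread widely and overlapped, and those of day 4 lay below all of them. Divided by the median of all regions in the same library, the members' median was 1.42, 1.79 and 1.86 at 8 h, 1.54, 1.61 and 1.33 at day 1, 0.806, 0.622 and 0.686 at day 2, 0.520 and 0.500 at day 4 and 0.656 and 0.600 in XEN cells. On this scale, the members went from above the typical GATA6 region to below it between day 1 and day 2. Closed members started lower, at 0.0750, 0.0846 and 0.0475 RPM at 8 h, and reached 0.0452 and 0.0454 at day 4, where moderate members went from 0.145, 0.207 and 0.114 to 0.0703 and 0.0695 RPM.

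**Figure D2:**
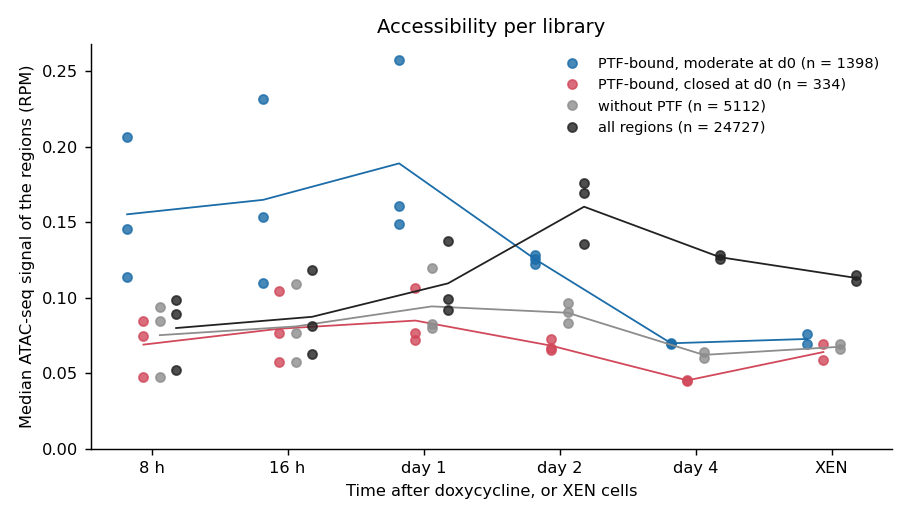
Median ATAC-seq signal in RPM per recovered library (points) and the mean of the libraries of a group (lines), at regions with recovered reads. Moderate members (blue) fell to about the level of regions without PTF (grey) by day 4, closed members (red) fell from a lower level, and the median of all regions (black) rose.

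To ask which single regions changed, the libraries were compared with those of 8 h by limma, with Benjamini-Hochberg adjustment over all 24727 regions and a call at an adjusted p under 0.05. At 16 h no member was called, 71 of 1732 had an unadjusted p under 0.05, and of all regions 1 was higher (0.00404%) and 1 lower (0.00404%). At day 1, 18 members were higher (1.04%) and none was lower, where 5.38% of all regions were higher and 0.0162% lower. At day 2, 107 members were higher (6.18%) and 220 lower (12.7%), against 47.3% and 2.93% of all regions. This balance turned with the 8 h libraries, since without the second of them 153 members were higher and 87 lower, and without the third 51 and 302. At day 4, 708 members were lower (40.9%) and 3 higher, against 8.76% and 36.5% of all regions. Between day 2 and day 4, 264 members fell (15.2%, against 8.5% of all regions) and 1 rose (against 2.17% of all regions). Without the first or the second day 4 library, 25 and 35 members fell and none rose.

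The members' median log2 change from 8 h, on the scale of log2(RPM + 0.03), was 0.21 at day 1, -0.17 at day 2 and -0.74 at day 4, where the medians of all regions were 0.31, 0.70 and 0.52. In the averaged columns of all 3045 members, 999 were over 2-fold lower at day 4 than at 8 h (32.8%, against 6.83% of all regions) and 6 over 2-fold higher (30.1% of all regions). Relative to all regions the members of the libraries thus stood at -0.10, -0.87 and -1.26, so that the sign at day 1 turns with the scaling. At day 2 the sign turned without the second 8 h library, where the members' median change was 0.0041 and that of all regions 0.83. At day 4 the members' median was below 0 under all 24 settings. With every library centred on its median, 11 members were called higher and 1275 lower at day 2, and 2 and 1432 at day 4. At day 4, both libraries lay below all 3 of 8 h at 1051 of the 1732 members (60.7%), against 14.7% of all regions, and above them at 28 (1.62%, against 48.5%). The count at day 4 rested on few libraries. Without the second 8 h library it was 395 lower, and without the first or the second day 4 library 370 and 362. Of the 708, 197 were called lower under all 24 settings tried.

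The share that fell differed between the d0 classes. Of the moderate members 667 of 1398 (47.7%) were lower at day 4 with a median change of -0.84, and of the closed members 41 of 334 (12.3%), with -0.36. In the accessible PTF-bound regions 457 of 562 (81.3%) were lower, with -1.47. Signal at 8 h differed in the same order, and over the 1732 members the change at day 4 had a Spearman correlation of -0.49 with the averaged 8 h value, which enters both quantities. Less accessible Transient regions without PTF had 536 of 5112 lower (10.5%) and 270 higher (5.28%), with a median change of -0.15. Where SOX17 was also present, 112 of 525 were lower (21.3%) and 45 higher (8.57%). At day 2, 237 of the 525 (45.1%) had been higher and 6 lower (1.14%), against 47.3% and 2.93% of all regions. No test of these differences between sets was made.

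**Figure D3:**
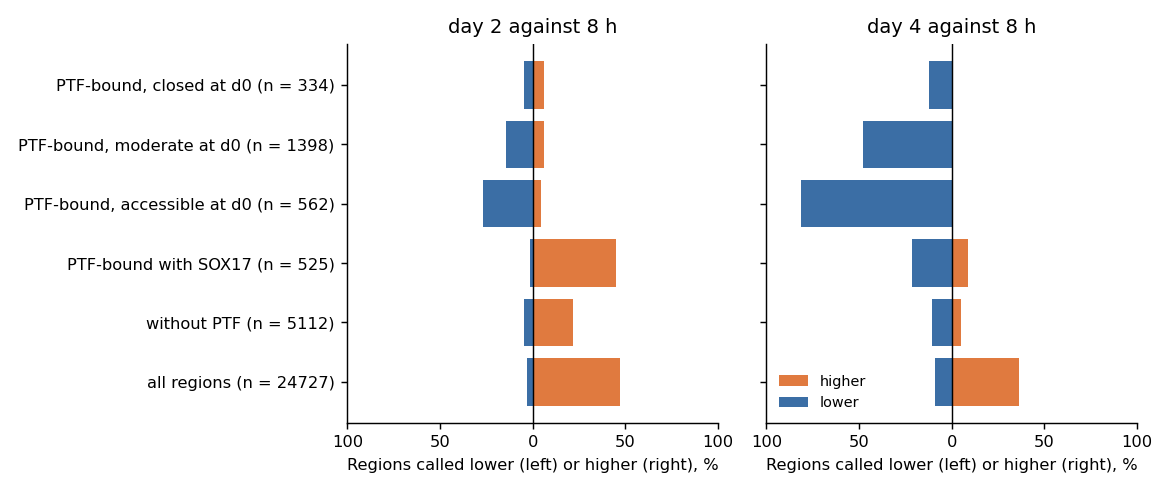
Percentage of regions called lower (blue, to the left) or higher (orange, to the right) than at 8 h by limma at an adjusted p under 0.05, at day 2 and at day 4, for the members by their d0 class, the 3 comparison sets and all regions with recovered reads. At day 4 the bars of the PTF-bound sets without SOX17 point left and that of all regions mainly right.

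Most members (1405 of 1732) were not called at day 2. The 107 higher (6.18%) and 220 lower (12.7%) compare with 47.3% and 2.93% of all regions. Without the second 8 h library the split was 153 and 87. Levels at 8 h and day 2 entered these calls. The 107 that were higher at day 2 had a median of 0.126 RPM at 8 h, 0.231 at day 1, 0.280 at day 2 and 0.107 at day 4 in the averaged columns. Of these, 3 were still higher at day 4, 102 were not called and 2 were lower. The 220 that were lower at day 2 went from 0.198 to 0.0814 and 0.0595 RPM, and 183 of them were called lower at day 4 as well. The other 523 members lower at day 4 had not been called at day 2. In what the call did not use, the higher group had a median OCT4:SOX2 score of 9.38, with a match in 86.0% of its regions, and the lower group 11.2, with 96.4%. The knockdown class was decreased at 15 regions of the higher group (14.0%) and 7 of the lower (3.18%). Closed regions made up 19.6% and 7.27%, against 21.1% of the members not called, and median widths were 631 and 665 bp.

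Within the members, motif scores and the change were weakly related. Across members with a match, the Spearman correlation of the OCT4:SOX2 score with the change was -0.10 at day 2 and -0.06 at day 4 (1651 regions measured in the same libraries), and that of the GATA6 score 0.03 and 0.06 (1535 regions). Over all regions the lower share at day 4 was 29.4% where the OCT4:SOX2 score exceeded the members' 75th percentile (13.4) and 3.91% where no match was listed, while among the members these shares were 43.2% and 30.9%. For the 81 members tested without an OCT4:SOX2 match, 15 (18.5%) were higher and 8 (9.88%) lower at day 2. The shares over all regions were 47.3% and 2.93%.

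By chromatin class, the share lower at day 4 was 50.8% of active enhancers (213 of 419), 50.0% of promoters (26 of 52), 45.7% of primed enhancers (267 of 584) and 41.6% of poised enhancers (117 of 281), and it was lower in constitutive heterochromatin (44 of 186, 23.7%), facultative heterochromatin (18 of 77, 23.4%) and the naive class (23 of 133, 17.3%). In all regions of the same classes the shares were 30.5%, 7.76%, 12.7%, 10.8%, 3.43%, 1.21% and 1.66%. Median signal at 8 h was 0.280 RPM at promoters, 0.242 at active, 0.151 at poised and 0.132 at primed enhancers. It was 0.0832 RPM in constitutive and 0.0738 in facultative heterochromatin and 0.0706 at naive members. The part of signal in these shares was not tested. Members in constitutive heterochromatin had the largest share of higher calls at day 2 among the classes (21 of 186, 11.3%), followed by promoters (5 of 52, 9.62%). This share was 6.18% over all members and 47.3% over all regions. Members of the decreased knockdown class had a median change of 0.36 at day 1, 0.09 at day 2 and -0.69 at day 4, where unchanged members had 0.20, -0.19 and -0.74. The share varied less with distance beyond 1 kb of a start site (35.0% to 44.5% lower), and within 1 kb 10 of 53 members (18.9%) were lower.

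The sequence families shown above differed in level and in their share of losses. All 6 had their highest median at day 1. Families 4 and 5 went from 0.138 to 0.229 RPM and from 0.135 to 0.243 RPM in the median of the averaged columns, before they fell to 0.0649 and 0.0595 RPM at day 4. Their median log2 changes at day 1 were 0.48 and 0.54, where all members had 0.21. Family 2 had the highest share of losses among the 6, with 32 of 43 tested regions lower at day 4 (74.4%, median change -1.11) and a median change of -1.45 in XEN cells. Family 1, in which 67 of 176 members were closed at d0, had the lowest level of the 6 from d0 to day 1 and at day 4, from 0.0833 RPM at 8 h to 0.0469 at day 4, with 26 of 94 lower (27.7%). The knockdown class was decreased at 31 regions of family 1 (17.6%) and 10 of family 3 (14.9%), at none of the 83 of family 2, and at 7.78% of all members. In families 3, 4, 5 and 6, 16 of 36, 11 of 29, 11 of 19 and 11 of 22 were lower at day 4. Of all members 40.9% were lower, and of all regions 8.76%. Members that aligned to another region and those that did not were lower at day 4 in 41.9% and 40.5%. Over all regions these shares were 14.1% and 7.95%. Families hold few tested regions, and no test between them was made.

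**Figure D4:**
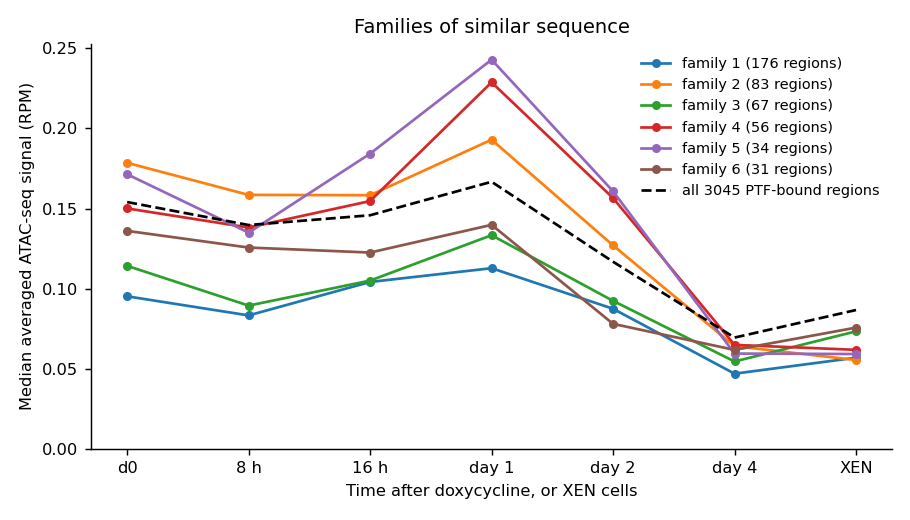
Median of the averaged ATAC-seq values in RPM for the 6 largest sequence families (lines with points) and for all 3045 members (dashed) at d0, after doxycycline and in XEN cells. All 6 are highest at day 1 and lie between 0.0469 and 0.0649 RPM at day 4.

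In XEN cells most members that changed had less signal than at 8 h. Against 8 h, 587 of 1732 members were lower (33.9%, against 12% of all regions) and 14 higher (0.808%, against 27%), with a median change of -0.67 where all regions had 0.24. Of the 708 members lower at day 4, 410 were also lower in XEN cells, both comparisons sharing the 8 h libraries. Against day 4, 43 members were higher (2.48%) and 49 lower (2.83%), where 5.08% and 14.8% of all regions were. This split depended on the scaling, with 194 higher and 83 lower after centring the libraries and 223 and 71 after quantile normalisation. Of the 14 higher than at 8 h, 10 were closed members. Without the XEN library of low depth, the count against 8 h fell to 297 members, all lower, and against day 4 it was 5 higher and 2 lower. One read in that library was worth 0.0231 RPM, so that its values move in coarse steps.

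The largest losses were at distal regions. The 6 members with the largest fall among those called at day 4 are given first, with the values of single libraries. The region at chr10:77190308-77191513, an active enhancer in intergenic sequence 24.4 kb from the start of Col18a1 (a collagen chain of basement membranes), had 0.548, 0.757 and 0.404 RPM at 8 h, 0.486, 0.666 and 0.414 at day 1, 0.306, 0.143 and 0.199 at day 2, 0.0854 and 0.0748 at day 4 and 0.201 and 0.115 in XEN cells. Both day 4 libraries lay below every earlier one, with a log2 change from 8 h of -2.40 (SE 0.40, limma adjusted p = 4.18e-08). Near G3bp2, which encodes a stress granule protein, the intergenic region chr5:92100998-92102246 held the highest signal of the 6, at 1.09, 1.57 and 0.774 RPM at 8 h, 0.949, 1.99 and 0.988 at day 1, 0.778, 0.676 and 0.634 at day 2 and 0.211 and 0.203 at day 4. The groups of 8 h and day 4 did not overlap, and the change was -2.25 (SE 0.41, adjusted p = 3.98e-07). The region chr12:72733941-72735006, 27.0 kb from Ppm1a, a protein phosphatase, went from 0.609, 0.912 and 0.432 RPM at 8 h to 0.446, 0.519 and 0.426 at day 2 and 0.111 and 0.102 at day 4. This fall came mostly after day 2, since the change from day 2 to day 4 was -1.86 (adjusted p = 6.31e-04) and that from 8 h to day 2 was -0.41 (adjusted p = 0.354).

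Others had fallen by day 2. The region chr11:59281908-59282459 lies in an intron of Wnt3a, which encodes a Wnt ligand, and is a poised enhancer. It held 0.248, 0.432 and 0.237 RPM at 8 h, 0.195, 0.153 and 0.0731 at 16 h, 0.0524, 0.105 and 0.116 at day 2, 0.0452 and 0.0321 at day 4 and 0.101 and 0.0923 in XEN cells, so that every library from 16 h on lay below those of 8 h. The change was -1.47 at day 2 (adjusted p = 1.28e-04) and -2.25 at day 4 (adjusted p = 1.67e-07). At chr11:72420428-72421170, an active enhancer 8.95 kb from Smtnl2, the libraries had 0.244, 0.484 and 0.313 RPM at 8 h, 0.241, 0.400 and 0.171 at day 1 and 0.101, 0.0762 and 0.0823 at day 2, and 0.0301 and 0.0695 at day 4 (change -2.24, adjusted p = 2.47e-07). The sixth, chr7:26706106-26706716, belonged to a smaller sequence family and went from 0.220, 0.437 and 0.214 RPM at 8 h to 0.0301 and 0.0321 at day 4 (change -2.32, adjusted p = 7.88e-08). All 6 were moderate at d0, and each was called lower at day 4 under all 23 alternatives.

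The 3 members called higher at day 4 were all intronic. The region chr4:150346551-150347139, within Rere, a nuclear corepressor gene, had no listed match to any of the GATA6, OCT4:SOX2 or ESRRB motifs and rose from 0.0938, 0.0470 and 0.0665 RPM at 8 h to 0.328, 0.362 and 0.499 at day 2 and 0.221 and 0.428 at day 4. All of these later values exceeded those of 8 h with a change at day 4 of 1.80 (SE 0.39, adjusted p = 3.54e-05), while XEN cells had 0.0832 and 0.0231 RPM. In Atxn7l1, chr12:33220328-33221201 went from 0.131, 0.212 and 0.123 to 0.337 and 0.417 RPM at day 4 (change 1.16, adjusted p = 0.0109, called in 21 of 23 alternatives). In Map3k5, a stress-activated kinase gene, chr10:19938744-19939092 went from 0.0469, 0.0423 and 0.00949 to 0.127, 0.162 and 0.111 RPM at day 2 and 0.0603 and 0.102 at day 4. Its call at day 4 (change 0.85, adjusted p = 0.0489) held in 9 of 23 alternatives.

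The next course was a rise at day 2, shown by the 3 members with the largest rise at day 2 among those not called at day 4. In an intron of Magi1, a scaffold protein of cell junctions, chr6:94169689-94170210 had 0.0797, 0.146 and 0.0760 RPM at 8 h, 0.115, 0.262 and 0.188 at day 1, 0.306, 0.505 and 0.373 at day 2 and 0.146 and 0.134 at day 4. Every day 2 library exceeded every other, and the change was 1.72 (SE 0.35, adjusted p = 7.26e-06) at day 2 and 0.42 (adjusted p = 0.398) at day 4. In an intron of Dpp6, chr5:27420975-27421893 rose from 0.258, 0.409 and 0.204 RPM at 8 h to 0.642, 1.29 and 1.08 at day 2 and stood at 0.276 and 0.379 at day 4. In Pitpnc1, a lipid transfer protein gene, chr11:107416774-107417835 rose from 0.403, 0.461 and 0.223 to 1.00, 1.47 and 1.37 RPM at day 2, with 0.764 and 0.518 at day 4. The changes at day 2 were 1.69 (adjusted p = 1.49e-05) and 1.78 (adjusted p = 5.55e-06). The sign of the day 4 change at the regions in Magi1 and Dpp6 turned when libraries were centred.

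**Figure D5:**
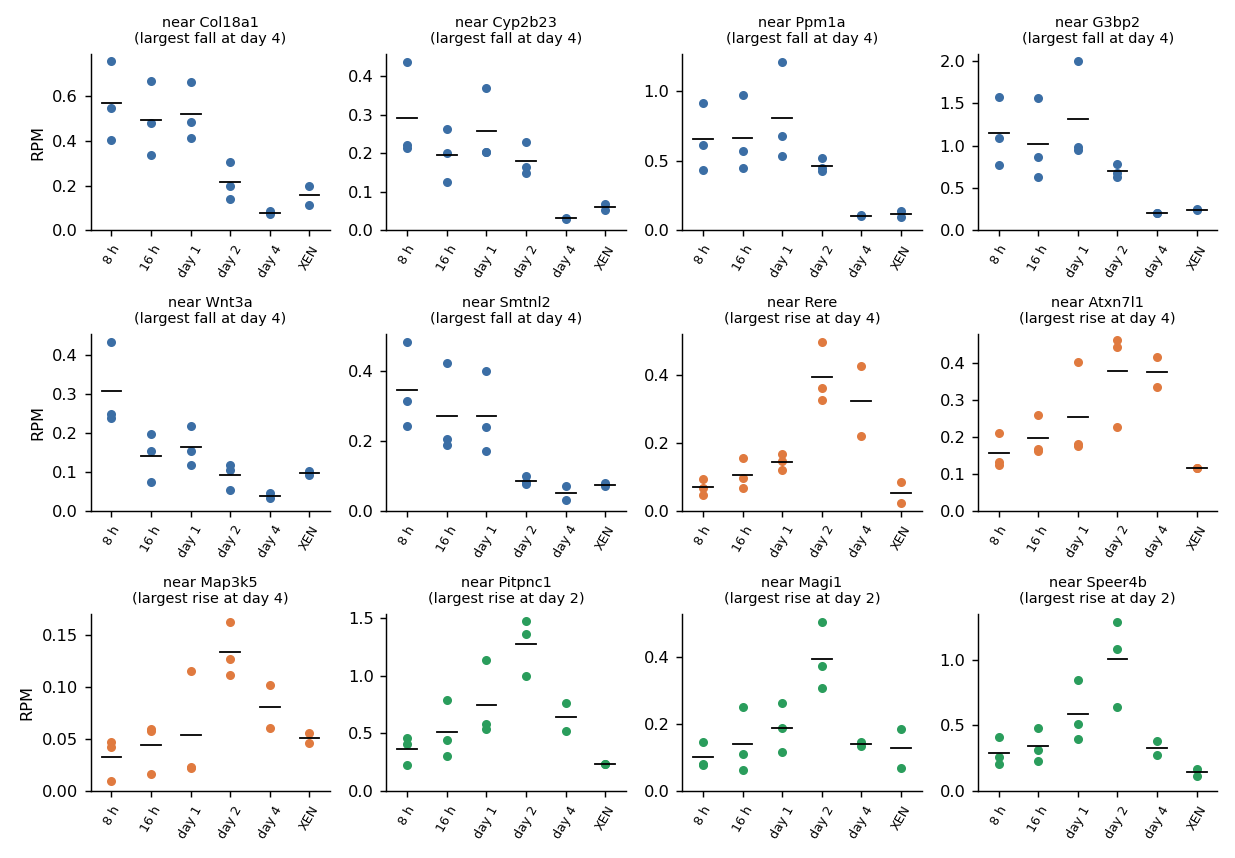
ATAC-seq signal in RPM of each recovered library (points) with the mean of the group (bars) at the 6 members with the largest fall at day 4 (blue), the 3 called higher at day 4 (orange) and the 3 with the largest rise at day 2 (green), named by the nearest gene. Blue regions have their lowest mean at day 4, and green ones are highest at day 2. Each panel has its own axis from 0.

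The highest mean from 8 h to day 4 was at chr9:108585870-108588155, a wide active enhancer (2285 bp) in an intron of P4htm, with 1.44, 2.37 and 1.30 RPM at 8 h and 0.804 and 0.743 at day 4 (change -1.06, adjusted p = 0.0241). The next was at chr10:60814367-60815560, in an intron of the netrin receptor gene Unc5b, of the decreased knockdown class. It rose from 0.788, 1.26 and 0.798 RPM at 8 h to 1.56, 2.28 and 2.05 at day 2 (change 1.04, adjusted p = 0.0103), and at day 4 it held 0.487 and 0.684 RPM and in XEN cells 0.257 and 0.231 RPM. The lowest means were at the closed regions chr1:95602095-95602398, in an intron of St8sia4, and chr5:87288833-87289149, 34.2 kb from Ugt2b37. Their libraries held between 0 and 0.0318 RPM, and no change was detectable at this depth. The region in St8sia4 nonetheless had the highest OCT4:SOX2 score of all regions named here (18.3).

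For the regions named here, the 4 with the highest score for each motif are shown with 20 bases on either side, to set strong matches beside regions that took different courses. The matches are in capitals and each sequence is read 5′ to 3′ on the strand of its match in mm10.
OCT4:SOX2 match near St8sia4, chr1:95602287-95602341 (-): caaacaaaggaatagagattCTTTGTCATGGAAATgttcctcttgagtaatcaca
OCT4:SOX2 match near Map3k5, chr10:19938878-19938932 (-): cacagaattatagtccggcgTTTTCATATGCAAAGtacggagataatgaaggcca
OCT4:SOX2 match near Smtnl2, chr11:72420620-72420674 (-): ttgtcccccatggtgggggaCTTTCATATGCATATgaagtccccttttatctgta
OCT4:SOX2 match near Tfcp2l1, chr1:118776648-118776702 (-): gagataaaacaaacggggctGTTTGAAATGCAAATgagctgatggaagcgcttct
GATA6 match near Wdr6, chr9:108586021-108586073 (+): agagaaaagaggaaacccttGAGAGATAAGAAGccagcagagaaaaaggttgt
GATA6 match near Dusp6, chr10:99286953-99287005 (+): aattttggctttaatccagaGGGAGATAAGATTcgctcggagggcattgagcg
GATA6 match near Klf2, chr8:72313298-72313350 (-): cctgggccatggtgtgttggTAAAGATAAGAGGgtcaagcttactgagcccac
GATA6 match near Unc5b, chr10:60814915-60814967 (-): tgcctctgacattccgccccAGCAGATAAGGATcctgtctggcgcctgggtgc
ESRRB match near Prdm14, chr1:13131768-13131818 (-): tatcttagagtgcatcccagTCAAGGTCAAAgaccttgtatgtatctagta
ESRRB match near Col18a1, chr10:77190982-77191032 (+): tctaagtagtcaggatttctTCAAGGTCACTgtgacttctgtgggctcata
ESRRB match near Speer4b, chr5:27421516-27421566 (+): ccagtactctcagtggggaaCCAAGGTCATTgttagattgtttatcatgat
ESRRB match near Ppm1a, chr12:72734276-72734326 (-): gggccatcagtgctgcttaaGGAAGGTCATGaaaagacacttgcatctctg

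Among the 4 OCT4:SOX2 matches, that near Smtnl2 belongs to a region that fell at day 4 and that near Map3k5 to one that rose. The match at St8sia4, the highest scoring of them, stands in a region with almost no signal. All 4 ESRRB matches hold AAGGTCA. The regions near Col18a1, Ppm1a and Prdm14 fell at day 4, and that in Dpp6 (near Speer4b) rose at day 2. A match is a description of the letters in these windows.

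Genes of the pluripotent state were the nearest genes to some members, from lists of 38 pluripotency, 18 formative and signalling and 25 primitive endoderm genes. For the pluripotency list, 31 members lay nearest to 16 of the genes, and of the 20 tested 11 were lower at day 4 and none higher, with a median change of -0.94. Of all 1732 members tested, 708 (40.9%) were lower, with a median change of -0.74. At day 2, 1 of the 20 was higher and 3 were lower. All regions of the table nearest to these genes had 43 lower and 43 higher of 213 tested at day 4, with a median of 0.01. From each list up to 8 members are named, chosen for the largest change at day 4. At chr8:72312513-72313512, 6.05 kb from Klf2, a factor of naive pluripotency, the libraries held 0.431, 0.484 and 0.332 RPM at 8 h, 0.323, 0.220 and 0.235 at 16 h, 0.166, 0.105 and 0.184 at day 2, 0.100 and 0.0748 at day 4 and 0.191 and 0.254 in XEN cells. Every library of day 2 and day 4 lay below all of 8 h, and the change at day 4 was -1.92 (SE 0.40, adjusted p = 1.25e-05). At chr1:137390118-137390735, 430.0 kb from Nr5a2, a nuclear receptor that activates pluripotency genes, the libraries went from 0.258, 0.442 and 0.323 RPM at 8 h to 0.0568, 0.0762 and 0.0823 at day 2 and 0.0603 and 0.0908 at day 4 (change -1.80, adjusted p = 3.68e-05).

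The intronic region chr10:62895258-62896328 in Tet1, a 5-methylcytosine dioxygenase, overlapped between 8 h and day 2 (0.342, 0.602 and 0.280 RPM at 8 h and 0.389, 0.291 and 0.368 at day 2) and then fell to 0.121 and 0.112 at day 4. Both day 4 values lay below all those of 8 h (change -1.51, adjusted p = 7.32e-04). The region chr1:118776384-118776955, 149 kb from Tfcp2l1, another naive factor, had 0.122, 0.193 and 0.123 RPM at 8 h, 0.149, 0.200 and 0.145 at day 2 and 0.0301 and 0.0534 at day 4 (change -1.29, adjusted p = 0.00378). The other 4 named from this list were also lower at day 4, with changes of -1.57 near Mycn (adjusted p = 3.24e-04), -1.18 at the start of Dppa3 (0.00910), -1.12 near Prdm14, a repressor of differentiation (0.0138), and -0.96 near Tbx3 (0.0372). The call near Tbx3 held in 18 of 23 alternatives and those at the other 7 in 21 or more.

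For the formative and signalling list, 13 members lay nearest to 8 of the genes, and of 4 tested 2 were lower at day 4. Of all regions nearest to these genes 54 were tested, of which 12 were lower and 9 higher (median change -0.18). The 2 members were chr12:25144407-25145162, 47.5 kb from Id2, an inhibitor of helix-loop-helix factors, with 0.356, 0.578 and 0.218 RPM at 8 h and 0.0854 and 0.192 at day 4 (change -1.28, adjusted p = 0.00484), and chr10:99286319-99287344, 23.7 kb from the ERK phosphatase gene Dusp6, with 0.305, 0.517 and 0.290 and 0.141 and 0.176 RPM (change -1.05, adjusted p = 0.0227). For the primitive endoderm list, 7 members lay nearest to 5 of the genes, and of 2 tested neither was called at day 4. Only part of the 299 regions nearest to these genes was tested. Most of those tested (90 regions) were higher at day 4 and none was lower, with a median change of 1.25. One of the 2 members, chr7:130236609-130237286 in an intron of Fgfr2, an FGF receptor, rose from 0.164, 0.174 and 0.123 RPM at 8 h to 0.459, 0.624 and 0.455 at day 2, above every 8 h library (change 1.56, adjusted p = 5.90e-05), and had 0.231 and 0.235 at day 4. The nearest gene need not be the gene that a distal region controls.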

How the data were processed

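The authors counted short ATAC-seq fragments, mapped with Bowtie2 to mm10 and filtered by mapping quality, in GATA6 peaks and deposited RPM values as 1 average per group, not divided by width. The submitters' processing notes also name bcl2fastq, cutadapt and SAMtools, without versions. Motif values are scores deposited by the authors for the best match per region. A further 52 per-sample columns of other experiments were not used. Averages of whole reads were decoded into single libraries (tolerance 1e-07 reads) at 24727 of 42403 regions, and the d0 column could not be decoded, so 8 h served as the baseline. The lowest value of a column was read as 1 added read in each library, and this read was taken off the recovered reads. A set of library sizes was accepted where it left none of the lowest values of a column undecoded. The planned tests, meant for single libraries, were run on these recovered libraries with limma 3.58.1 on log2(RPM + 0.03) over all groups, with a trend of the spread with the mean and Benjamini-Hochberg adjustment. Decoding and fit were tested on simulated data. Windows were aligned with BLASTN 2.17.0 and read from the mm10 genome. Intergenic, intronic and start site positions are those of protein-coding genes.

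Members and gene lists were chosen with earlier results of these data known. Named regions were the 6 largest falls and up to 6 rises among members called at day 4, the 3 largest rises at day 2 not called at day 4, the 2 highest and 2 lowest means, and up to 8 per gene list with the largest change at day 4. Alternatives were other pseudocounts, scalings, a filter on reads, a 2-fold limit, limma without the trend and leaving out each library.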

Additional observations from a re-analysis of the deposited data

How the results depend on the processing

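Both the scaling and single libraries moved the counts of members called. In the order 16 h, day 1, day 2, day 4 and XEN cells against 8 h, day 4 against day 2, and XEN cells against day 4, 5, 45, 1286, 1434, 1259, 338 and 277 members were called with libraries centred on their medians and 19, 88, 1194, 1425, 1258, 275 and 294 after quantile normalisation. At day 1 the centred calls were 7 higher and 38 lower, and at day 2, 11 higher and 1275 lower. Without the second 8 h library the day 2 calls were 153 higher and 87 lower. A pseudocount of 0.006 RPM gave 10 calls at day 1, one of 0.15 RPM gave 52 for XEN cells against day 4, and a required 2-fold change gave 155 at day 2. Leaving out 1 library gave 0 to 47 calls at day 1, 196 to 357 at day 2, 363 to 836 at day 4, 25 to 347 for day 4 against day 2, 297 to 723 for XEN cells against 8 h and 7 to 121 for XEN cells against day 4, and 0 at 16 h. The lone library then left in a group is assumed to vary like the others. Counts moved by over 1.5 times without the second day 2 library (196 at day 2), without the second 8 h library (402 at day 4 and 377 in XEN cells), without either day 4 library (372 and 363 at day 4, 25 and 35 for day 4 against day 2, 19 and 23 for XEN cells against day 4), without day 2 library 2 or 3 (95 and 118 for day 4 against day 2), without the second XEN library (297 and 7) and, at day 1, without any 8 h library, 16 h library 1 or day 1 library 2 or 3.

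In the averaged columns the median change of the members at day 1 turned negative when the median of all regions was subtracted (-0.29 against d0 and -0.16 against 8 h) and after quantile normalisation (-0.31 and -0.20). For day 2, day 4 and XEN cells against d0 and then against 8 h, the medians were -0.37, -1.06, -0.79, -0.24, -0.93 and -0.65 with a pseudocount of 0.006 RPM, -0.17, -0.44, -0.35, -0.10, -0.36 and -0.28 with 0.15 RPM, -1.14, -1.39, -1.14, -0.99, -1.25 and -0.99 with the median of all regions subtracted and -1.03, -1.36, -1.20, -0.90, -1.24 and -1.08 after quantile normalisation. With the lowest value of each column subtracted they were -0.87, -0.79, -0.77 and -0.68 for day 4 and XEN cells against d0 and against 8 h.

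Among single regions the change at day 4 turned sign near Magi1 (-0.12 centred, -0.14 quantile normalised), near Speer4b (-0.34 and -0.51, and -0.014 to 0.45 on leaving out 1 library, with -0.0052 without 8 h library 3 and -0.014 without day 4 library 2), near Fgfr2 (-0.011 and -0.15) and near St8sia4 (0.0057 without the first 8 h library). The causes were not tested. No paired analysis was possible because the averaged columns carry no replicate numbers and the recovered libraries cannot be tied to single samples, so the planned replicate block was not run.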
